A study of Mus musculus with 30 samples.

Results

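Calcineurin is a calcium-dependent phosphatase, and the NFAT transcription factors are its best known substrates. The 10 genes described here are 4 NFAT factors (*Nfatc1*, *Nfatc2*, *Nfatc3* and *Nfatc4*), the calcineurin subunits *Ppp3ca*, *Ppp3cb* and *Ppp3r1*, the calcineurin regulators *Rcan1* and *Rcan2*, and the Z-disc protein gene *Myoz2*, taken from 56748 genes in a table of raw counts from mouse quadriceps. *Nfatc2* was picked on its low recovery score, a measure made from the WT, NT and 42.4 mg/kg mice of this same table. The other 9 genes were chosen by name as its partners, with earlier results of these data known. All 10 passed the filter on low counts, which kept 17518 genes.

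HSA-LR mice (line 20b, homozygous, on the FVB/N background) model myotonic dystrophy type 1. They carry a human skeletal actin transgene with an expanded CTG repeat, whose CUG repeat RNA is made mainly in skeletal muscle. Poly(A)-enriched RNA was sequenced from the quadriceps of 30 mice, of which those in the treated groups were injected by tail vein at 8 weeks of age and killed 2 weeks after the last injection. The sample labels give an age of 8 weeks for all 30 mice, the untreated ones included. The groups were 5 FVB/N wild-type mice without the transgene or treatment (WT), 8 HSA-LR mice without treatment (NT), and transgenic mice that received an antisense oligonucleotide, L9, carried on a PEG bottlebrush polymer (pacDNA-L9; 4 mice given 5.3 mg/kg, 3 given 21.2 mg/kg and another 3 given 42.4 mg/kg), L9 without the polymer at 5.3 mg/kg (3 mice), 40 nmol of bare polymer (Brush, 2 mice), or a scrambled oligonucleotide on the polymer at 5.3 mg/kg (pacDNA-Scr, 2 mice). All injected groups carried the transgene, and the higher pacDNA-L9 doses were reached by repeated injection, so dose and number of injections cannot be told apart.

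In resting muscle NFAT proteins are phosphorylated and held in the cytoplasm. When calcium rises, calmodulin activates calcineurin, which removes these phosphates so that NFAT enters the nucleus, and kinases such as GSK3 and DYRK send it back. In skeletal muscle the pathway is known for its part in the slow-fibre gene program, in fibre growth and in regeneration, and the RCAN proteins bind calcineurin and are themselves NFAT targets in several cell types. RNA levels do not report phosphatase activity or the place of NFAT in the cell.

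L9 is an antisense oligonucleotide against CUG repeats, so the members were searched for its 9-base match, CTGCTGCTG on the transcript strand, in the mouse coding transcripts of the GRCm39 annotation. It was found in 2 of the 10 genes, *Nfatc3* (4 of 9 coding transcripts) and *Myoz2* (8 of 12), against 17.7% of 21642 genes with coding transcripts. *Nfatc2* held at most 2 CTG triplets in a row in these transcripts. Introns and non-coding transcripts were not searched, so a full match there is not excluded for any member. The matches of *Myoz2* (chr3:122800185-122800193, minus strand, in the coding sequence) and *Nfatc3* (chr8:106855769-106855777, plus strand, in a 3′ UTR) are shown with the match in capitals, because these are the members with a full match in the transcripts searched.
Myoz2: tttgaactaCTGCTGCTGacagatccc
Nfatc3: atggtggtgCTGCTGCTGctgcttctg

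The promoters of *Nfatc2*, *Myoz2* and *Rcan1* are shown because *Nfatc2* is the gene the list was built around, *Myoz2* varied most, and *Rcan1* has separate start sites whose reads are summed into a single count here. RefSeq gives a window from 250 bases before to 50 after the start, in build GRCm38.p6, for 8 of the 10 genes (13 windows). The NFAT core letters GGAAA, searched on both strands (TTTCC on the other strand), stand in capitals. At least 1 copy was present in 61.3% of 32851 mouse windows of this length and 3 or more in 9.42%, and a match is only a description of these letters.
Nfatc2, chr2:168601608-168601907, minus strand: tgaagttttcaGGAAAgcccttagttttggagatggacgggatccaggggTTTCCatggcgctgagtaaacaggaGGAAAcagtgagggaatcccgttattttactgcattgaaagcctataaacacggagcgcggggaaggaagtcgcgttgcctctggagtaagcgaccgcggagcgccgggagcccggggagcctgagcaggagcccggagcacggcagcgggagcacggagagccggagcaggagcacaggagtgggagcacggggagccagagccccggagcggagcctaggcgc
Rcan1 downstream start, chr16:92400029-92400328, minus strand: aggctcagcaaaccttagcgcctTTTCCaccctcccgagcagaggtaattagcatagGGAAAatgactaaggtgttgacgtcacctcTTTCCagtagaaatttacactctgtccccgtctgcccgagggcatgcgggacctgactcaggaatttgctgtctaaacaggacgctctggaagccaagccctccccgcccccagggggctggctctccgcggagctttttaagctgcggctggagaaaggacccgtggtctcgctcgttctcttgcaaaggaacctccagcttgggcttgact
Rcan1 upstream start, chr16:92466120-92466419, minus strand: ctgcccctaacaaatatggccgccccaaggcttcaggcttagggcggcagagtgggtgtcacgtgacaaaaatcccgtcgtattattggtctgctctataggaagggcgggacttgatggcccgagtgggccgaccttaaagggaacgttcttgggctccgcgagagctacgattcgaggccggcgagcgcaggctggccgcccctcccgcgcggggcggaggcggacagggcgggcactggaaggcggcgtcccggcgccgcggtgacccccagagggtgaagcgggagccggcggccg
Myoz2, chr3:123034938-123035237, minus strand: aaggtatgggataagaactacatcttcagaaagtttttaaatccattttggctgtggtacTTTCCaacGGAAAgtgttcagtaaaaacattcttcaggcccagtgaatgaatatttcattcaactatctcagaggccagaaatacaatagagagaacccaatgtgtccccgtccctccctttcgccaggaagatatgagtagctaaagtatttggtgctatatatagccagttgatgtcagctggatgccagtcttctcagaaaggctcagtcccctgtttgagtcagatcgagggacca

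The *Nfatc2* window shown held 3 copies, and a further *Nfatc2* window (chr2:168590316-168590615, minus strand) held 1. The downstream *Rcan1* window, from the kind of internal start at which the NFAT-responsive short isoform is known to begin, also held 3, and the upstream window held none (0). The *Myoz2* window held 2, on opposite strands and close to each other.

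Several facts of the libraries touch the results. Totals ran from 13605309 to 26956558 counts. The libraries were deposited as a first set of 24 and a second set of 6, while the replicate labels run on across the sets. The leading principal component, with 59.9% of the variance, set the 6 apart, so the deposited set was a term of the fit. In 5 of these 6 the mitochondrial genes were listed at 0. The exception was free L9 C, whose column carries a mouse number like columns of the first set. Within the first set, 9 libraries carry a column name made of the group and a running number with no mouse number (1 WT, NT 6, all 3 at 42.4 mg/kg, Brush B, pacDNA-Scr B, L9 A and L9 B). At 42.4 mg/kg a letter H stands before that number. The columns of WT 3, WT 4, NT 4 and NT 5 hold the group, a letter G or H and a number, and were not counted among the 9. This grouping by name is therefore a choice, and whether the naming marks a batch is not given in the sources used here. Sex read from the counts was female in 20 of 30 mice and in all 3 at 42.4 mg/kg. The muscle identity of the samples was clear: 9 of 9 myofibre markers were tested, with a summed level of 112739 to 189793 CPM (counts scaled to library size).

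Levels are given as CPM after TMM normalization, which adjusts library sizes for differences in composition. Compared per kilobase of exon, which is needed to set genes against each other, the median over 30 libraries was highest for the calcineurin subunits, at 44.8 CPM per kb for *Ppp3r1*, the regulatory B subunit, 31.9 for *Ppp3ca* (the alpha catalytic subunit) and 27.3 for *Ppp3cb* (the beta catalytic subunit). *Rcan1* followed at 22.9, *Rcan2* at 9.84 and *Myoz2* at 8.05 CPM per kb. The NFAT factors were lower, at 6.66 for *Nfatc1*, 3.15 for *Nfatc2*, 3.05 for *Nfatc3* and 0.653 CPM per kb for *Nfatc4*. The ranges of *Ppp3ca* (19.7 to 47.9) and *Ppp3cb* (22.7 to 36.9) overlapped, as did those of *Nfatc2* (1.37 to 5.76) and *Nfatc3* (2.22 to 4.29), so these neighbours in the order were not separated library by library. *Nfatc4* rested on 28 to 133 counts a library and every other member on at least 139. Of the exon bases of *Nfatc3*, 17.5% lie under the antisense gene *Esrp2*, whose reads could not be told apart if the counting, which is not stated to use strand, ignored it. Of those of *Ppp3r1*, 13.6% lie under *Dnaaf10* on the same strand, so these counts are uncertain with either kind of counting.

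The members differed widely in how much they varied. The highest library stood 13.5 times above the lowest for *Myoz2*, 4.34 times for *Nfatc4*, 4.20 times for *Nfatc2*, 3.36 times for *Rcan1* and 3.02 times for *Rcan2*. For the calcineurin subunits the ratio was 2.43 (*Ppp3ca*), 1.65 (*Ppp3r1*) and 1.63 (*Ppp3cb*), and for *Nfatc1* and *Nfatc3* it was 2.19 and 1.93. The steadiest members were the beta catalytic and the regulatory subunit of the phosphatase, and the widest range belonged to the Z-disc protein.

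**Figure D1:**
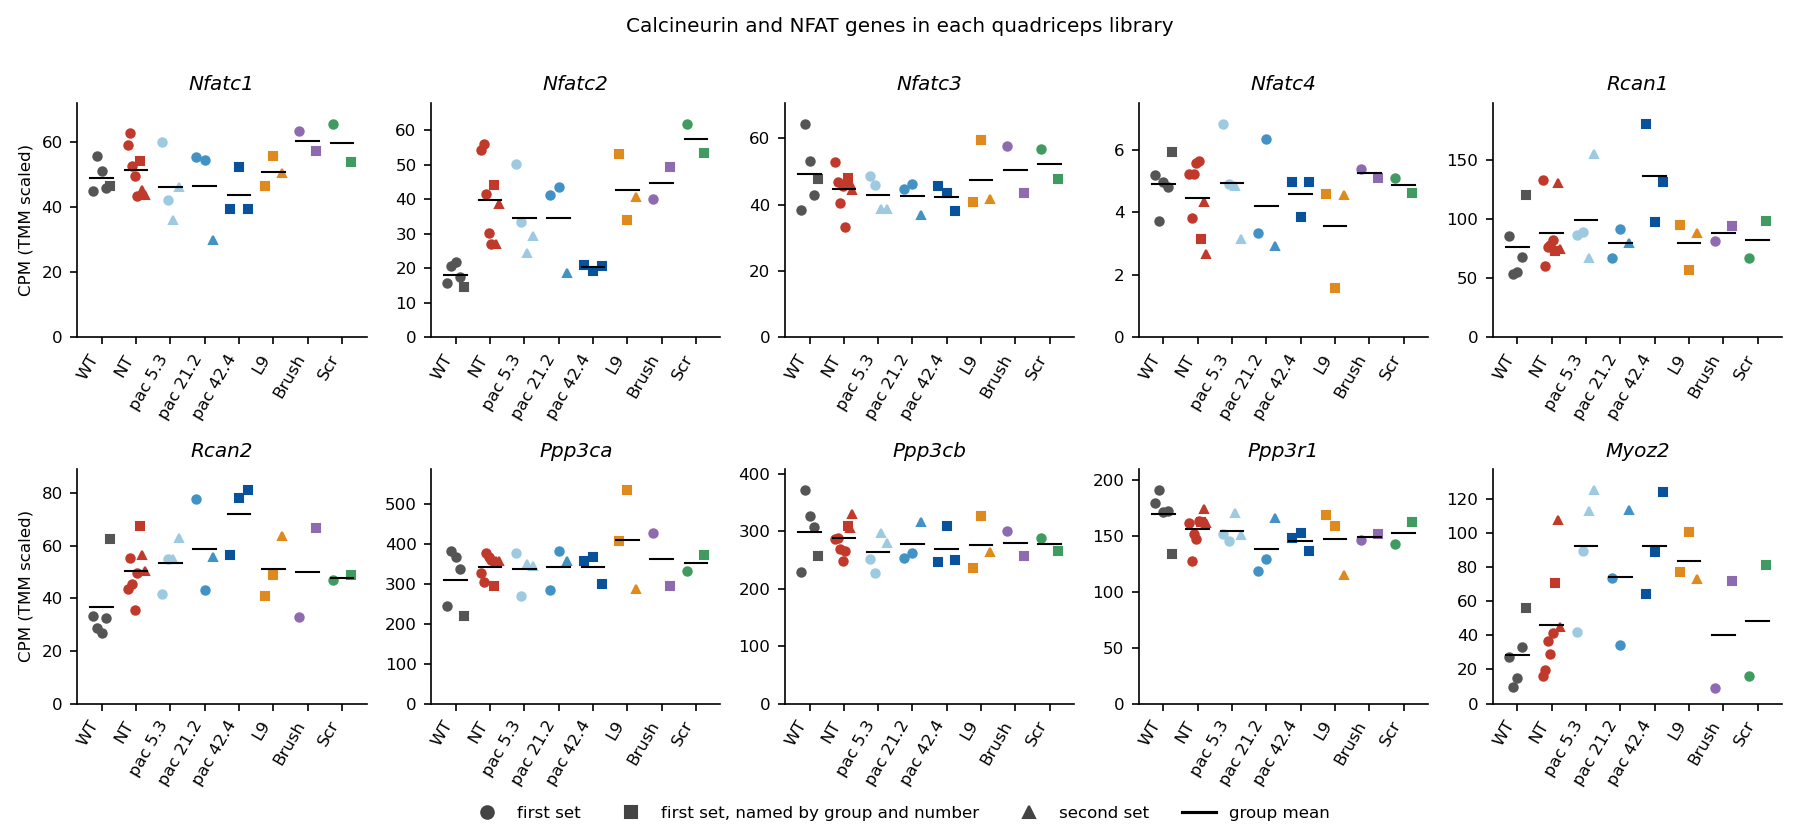
Level of each of the 10 genes in CPM (linear axis from 0) in each of 30 quadriceps libraries, grouped as WT, NT, pacDNA-L9 (pac, with the dose in mg/kg), free L9, Brush and pacDNA-Scr (Scr), with bars at the group means and marker shapes for the deposited set and the column naming. *Nfatc2* lay at 14.7 to 21.9 CPM in WT, 26.9 to 55.8 in NT and 19.3 to 20.9 at 42.4 mg/kg, while *Myoz2* spread from 9.26 to 125 CPM.

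*Nfatc2* encodes NFAT1, an NFAT factor best known from T cells that also acts in muscle growth. In WT muscle it was at 15.6, 20.7, 21.9, 17.5 and 14.7 CPM, in NT muscle at 26.9 to 55.8 CPM with a median of 40.0, and at 42.4 mg/kg at 20.9, 19.3 and 20.7 CPM. No NT mouse reached down to a WT or a 42.4 mg/kg mouse, and the 42.4 mg/kg values lay inside the WT range. The fitted log2 difference was 1.26 ± 0.19 (SE) for NT against WT, -1.09 ± 0.23 for 42.4 mg/kg against NT and 0.17 ± 0.23 for 42.4 mg/kg against WT. These are a description without a test, because the recovery score that chose the gene was made from these groups. The score, which is 0 at the WT mean and 1 at the NT mean, was 0.102 for *Nfatc2*, and the other 9 lay between 0.396 (*Nfatc1*) and 0.894 (*Ppp3ca*). It is made from distances without sign, so a treated mean outside the WT and NT means also scores between 0 and 1. The choice rested on no stated cut-off, and *Nfatc1* had the next lowest score. Its treated mean, 857 counts over DESeq2 size factors, lay below both WT (958) and NT (1011), so that score does not show a return to WT.

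In the groups the score did not use, *Nfatc2* was above the WT range in all libraries but 1. It was at 50.3, 33.5, 24.4 and 29.5 CPM at 5.3 mg/kg, at 41.2, 43.6 and 18.6 CPM in the 21.2 mg/kg group and at 52.9, 34.1 and 40.5 CPM after free L9. In Brush it was at 40.2 and 49.4 CPM and in pacDNA-Scr at 61.7 and 53.3 CPM. The lowest of these, 18.6 CPM at 21.2 mg/kg and 24.4 CPM at 5.3 mg/kg, came from libraries of the second set. That set was lower in *Nfatc2* within the shared groups too, at 26.9 and 38.7 CPM in its NT mice against a mean of 42.1 ± 11.9 CPM (SD, n = 6) in the NT mice of the first, and at 24.4 and 29.5 against 33.5 and 50.3 CPM at 5.3 mg/kg, while its free L9 mouse (40.5 CPM) lay between the other two. With the set as a term, the log2 difference from NT was -0.11 ± 0.19 (SE) for the 5.3 mg/kg dose, -0.22 ± 0.21 for 21.2 mg/kg, 0.16 ± 0.21 for free L9, 0.05 ± 0.25 in Brush and 0.41 ± 0.24 in pacDNA-Scr. None of these 5 passed the threshold in the edgeR quasi-likelihood test (adjusted p of 0.771 for free L9 and 1 for the others), and all 5 share the NT mice that entered the score. The fitted value for 42.4 mg/kg against NT was -0.96 with the column naming as a further term.

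T cells, in which *Nfatc2* is abundant, left little RNA in these samples. Of 10 T cell markers, 3 passed the filter, none of which (0 of 3) passed the test between NT and WT. The summed level of the 10 was 3.45 to 11.4 CPM in WT, 1.72 to 10.9 CPM in NT and 3.25 to 4.65 CPM at 42.4 mg/kg, with overlapping ranges, and *Cd3d* and *Cd3e* were at 0 in every WT library. The 3 markers tested did not move together at 42.4 mg/kg. Against NT, *Cd4*, which macrophages can also carry, was higher (3.74 ± 0.69, log2, SE; edgeR quasi-likelihood adjusted p = 0.00208), while the median of the 3 was -0.76, with *Cd28* at -1.43 (adjusted p = 0.218) and *Cd247* at -0.76 (adjusted p = 0.713). Against WT, *Cd28* was lower (-2.08, adjusted p = 0.0236) and *Cd4* higher, with a median of -1.20. For NT against WT the median of the 3 was -0.44. B cell markers summed to at most 2.08 CPM in any library. Of 7 endothelial markers none passed the test between NT and WT (0 of 7), with a summed level of 262 to 451 CPM in WT and 192 to 315 CPM in NT. Of 8 macrophage markers, 6 were higher at 42.4 mg/kg than in NT, a comparison that 3.14% of all genes passed. Their summed level was 137 to 195 CPM against 50.4 to 93.6 CPM. In NT against WT, where 5.31% of all genes passed, 1 of the 8 (*Cd68*) was higher, with a median log2 difference of 0.35. The part of these cell types in the *Nfatc2* values was not tested. In bulk muscle, fewer cells of a type and less RNA per cell cannot be told apart.

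The other NFAT factors did not pass the test in any of the 8 comparisons. *Nfatc1*, the factor with a calcium-inducible short isoform, was at 45.2 to 55.9 CPM in WT, at 43.5 to 62.8 CPM with a median of 51.1 in NT, and at 39.5, 52.4 and 39.6 CPM at 42.4 mg/kg. Its largest difference was at 42.4 mg/kg against NT, -0.31 ± 0.15 (log2, SE; edgeR quasi-likelihood adjusted p = 0.380), with a 95% interval of -0.60 to -0.01, and the groups overlapped. *Nfatc3*, the most steadily expressed NFAT factor here, was at 49.3 ± 10.1 CPM (SD, n = 5) in WT, 44.8 ± 5.81 (n = 8) in NT and 42.4 ± 3.83 (n = 3) at 42.4 mg/kg. *Nfatc4* was at 4.91 ± 0.796, 4.45 ± 1.15 and 4.59 ± 0.651 CPM in the same groups. Intervals for these 3 genes in NT against WT lay between -0.54 and 0.40, so changes of more than about that size in either direction would have been outside them.

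The calcineurin subunits passed the test in none of the 8 comparisons. *Ppp3ca* was at 311 ± 73.9 CPM (SD, n = 5) in WT, 344 ± 30.7 (n = 8) in NT and 343 ± 36.2 (n = 3) at 42.4 mg/kg. *Ppp3cb* was at 298 ± 56.3, 288 ± 26.6 and 269 ± 35.0 CPM, and *Ppp3r1* at 170 ± 21.4, 157 ± 14.1 and 146 ± 8.37 CPM in the same order. The widest 95% interval of a subunit in NT against WT was that of *Ppp3ca*, -0.15 to 0.46 on the log2 scale. At 42.4 mg/kg against NT the intervals were -0.37 to 0.34 for *Ppp3ca*, -0.32 to 0.21 for *Ppp3cb* and -0.34 to 0.17 for *Ppp3r1*.

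*Rcan1* and *Rcan2* encode regulators that bind calcineurin and can inhibit it. *Rcan1* was at 85.6, 53.8, 55.5, 67.8 and 120 CPM in WT, at 60.5 to 133 CPM with a median of 77.4 in NT, and at 181, 97.8 and 131 CPM at 42.4 mg/kg. The 42.4 mg/kg mice lay in the upper part of the range but overlapped both other groups. The log2 difference was 0.14 ± 0.23 (SE) for NT against WT, 0.69 ± 0.26 for 42.4 mg/kg against NT and 0.83 ± 0.28 against WT, with edgeR quasi-likelihood adjusted p of 0.844, 0.196 and 0.0586. The last fell just under the threshold with DESeq2 (adjusted p = 0.0452) and with at least 10 counts required in every library (edgeR, 0.0497), and not with the column naming as a term (log2 difference 0.61, adjusted p = 0.323).

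*Rcan2* was at 33.1, 28.9, 26.8, 32.4 and 62.7 CPM in WT, at 35.7 to 67.5 CPM with a median of 49.96 in NT, and at 56.6, 78.1 and 81.0 CPM at 42.4 mg/kg. Apart from the single WT library at 62.7 CPM, all WT mice lay below all NT mice, and all 42.4 mg/kg mice lay above 6 of the 8 NT mice or more. The difference for 42.4 mg/kg against WT, 0.97 ± 0.25 (log2, SE), passed the edgeR quasi-likelihood test (adjusted p = 0.0109), and the groups overlapped by that WT library. NT against WT (0.41 ± 0.20, adjusted p = 0.322) and 42.4 mg/kg against NT (0.56 ± 0.23, adjusted p = 0.263) did not pass. Without the WT library at 62.7 CPM, which is an NT-like level and is named by group and number, *Rcan2* passed in NT against WT as well (0.69, adjusted p = 0.0309). The call against WT was lost with the column naming as a term (0.59, edgeR adjusted p = 0.179) and without 42.4 mg/kg replicate B (0.90, adjusted p = 0.0660) or C (0.86, adjusted p = 0.0624).

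*Myoz2* encodes calsarcin-1, a slow-fibre and heart protein of the Z-disc that tethers calcineurin to alpha-actinin. It was at 27.5, 9.66, 15.0, 33.4 and 56.0 CPM in WT, at 15.9 to 107 CPM with a median of 39.0 in NT, and at 63.9, 88.5 and 124 CPM at 42.4 mg/kg. All 3 of the 42.4 mg/kg mice lay above all 5 WT mice, with a ratio of mean CPM of 3.25, and they overlapped NT. The log2 difference was 1.70 ± 0.60 (SE) against WT and 1.30 ± 0.55 against NT, and neither passed the edgeR quasi-likelihood test (adjusted p of 0.0742 and 0.284). Against WT it passed without the WT library without a number (2.11, edgeR adjusted p = 0.0307), without Brush A (0.0476) and without Brush B (0.0493). The 95% intervals were wide, 0.53 to 2.87 and 0.22 to 2.38. NT differed from WT by 0.40 ± 0.50 (adjusted p = 0.783).

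Counted together, none (0 of 9) of the members other than *Nfatc2* passed the edgeR quasi-likelihood test for NT against WT, where 5.31% of all genes tested passed (930 of 17518). None (0 of 9) passed for 42.4 mg/kg against NT, where 3.14% did, and 1 of 9, *Rcan2*, passed for 42.4 mg/kg against WT, where 9.98% did. At an unadjusted p under 0.05 the members were 0 of 9, 4 of 9 (*Nfatc1*, *Rcan1*, *Rcan2* and *Myoz2*) and 3 of 9 (*Rcan1*, *Rcan2* and *Myoz2*) in these comparisons, against 16.5%, 13.1% and 23.5% of all 17518 genes. DESeq2 called 0, 0 and 2. At the adjusted threshold 1 in 9 is near the share of all genes, while at the unadjusted one 4 in 9 for 42.4 mg/kg against NT is above it. The members were chosen with earlier results of these data known, so this higher share is a description and not a test.

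**Figure D2:**
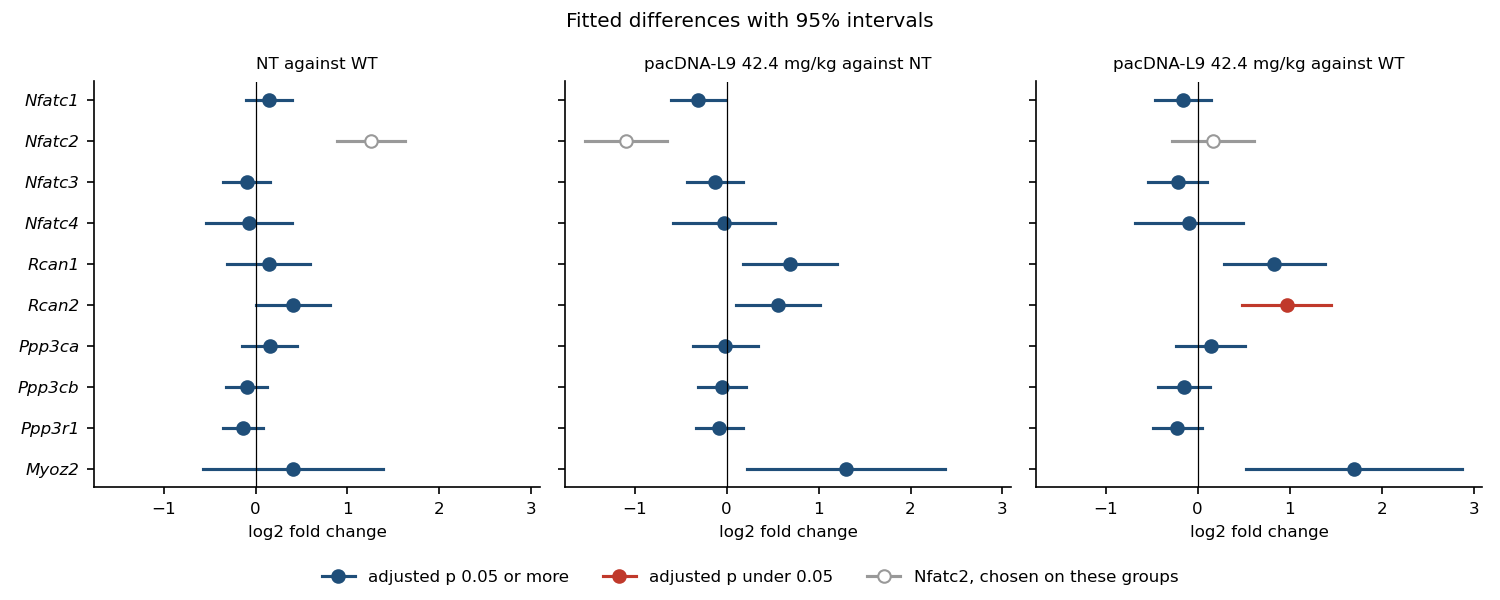
Fitted log2 fold change (x axis) of each of the 10 genes for NT against WT, pacDNA-L9 42.4 mg/kg against NT and pacDNA-L9 42.4 mg/kg against WT, with 95% intervals from the edgeR fit. *Rcan2* against WT, at 0.97, is the only point in red (adjusted p under 0.05), and the open grey points of *Nfatc2* carry no test.

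In the other injected groups the question is whether the carrier, the free oligonucleotide or the lower doses moved these genes. No member passed the edgeR quasi-likelihood test (0 of 10 in each) for 5.3 mg/kg, Brush or pacDNA-Scr against NT, and no gene of the table did either (0% of 17518 in each of these 3). None (0 of 10) passed at 21.2 mg/kg, where 0.0685% of all genes did, nor after free L9, where 0.942% did. In these 5 comparisons 0 members had an unadjusted p under 0.05, while 270 to 2421 of all genes did, and DESeq2 called 0 members. With 2 to 4 mice a group, the 95% intervals of *Nfatc2* still spanned -0.64 to 0.88 on the log2 scale.

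*Myoz2* had the widest intervals in these groups. Its libraries were at 41.8, 89.2, 113 and 125 CPM at 5.3 mg/kg, at 73.7, 34.4 and 113 CPM for 21.2 mg/kg, at 77.3, 100.3 and 73.2 CPM after free L9, at 9.26 and 71.6 CPM in Brush and at 16.1 and 80.9 CPM in pacDNA-Scr. The fitted log2 difference from NT was 0.82 ± 0.51 (SE), 0.61 ± 0.55, 0.96 ± 0.54, 0.11 ± 0.67 and 0.37 ± 0.66 in that order, all above 0 and none past the threshold. The Brush mice differed from each other by a ratio of 7.73, against a ratio of 3.25 between the means of the 42.4 mg/kg and WT groups.

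**Figure D3:**
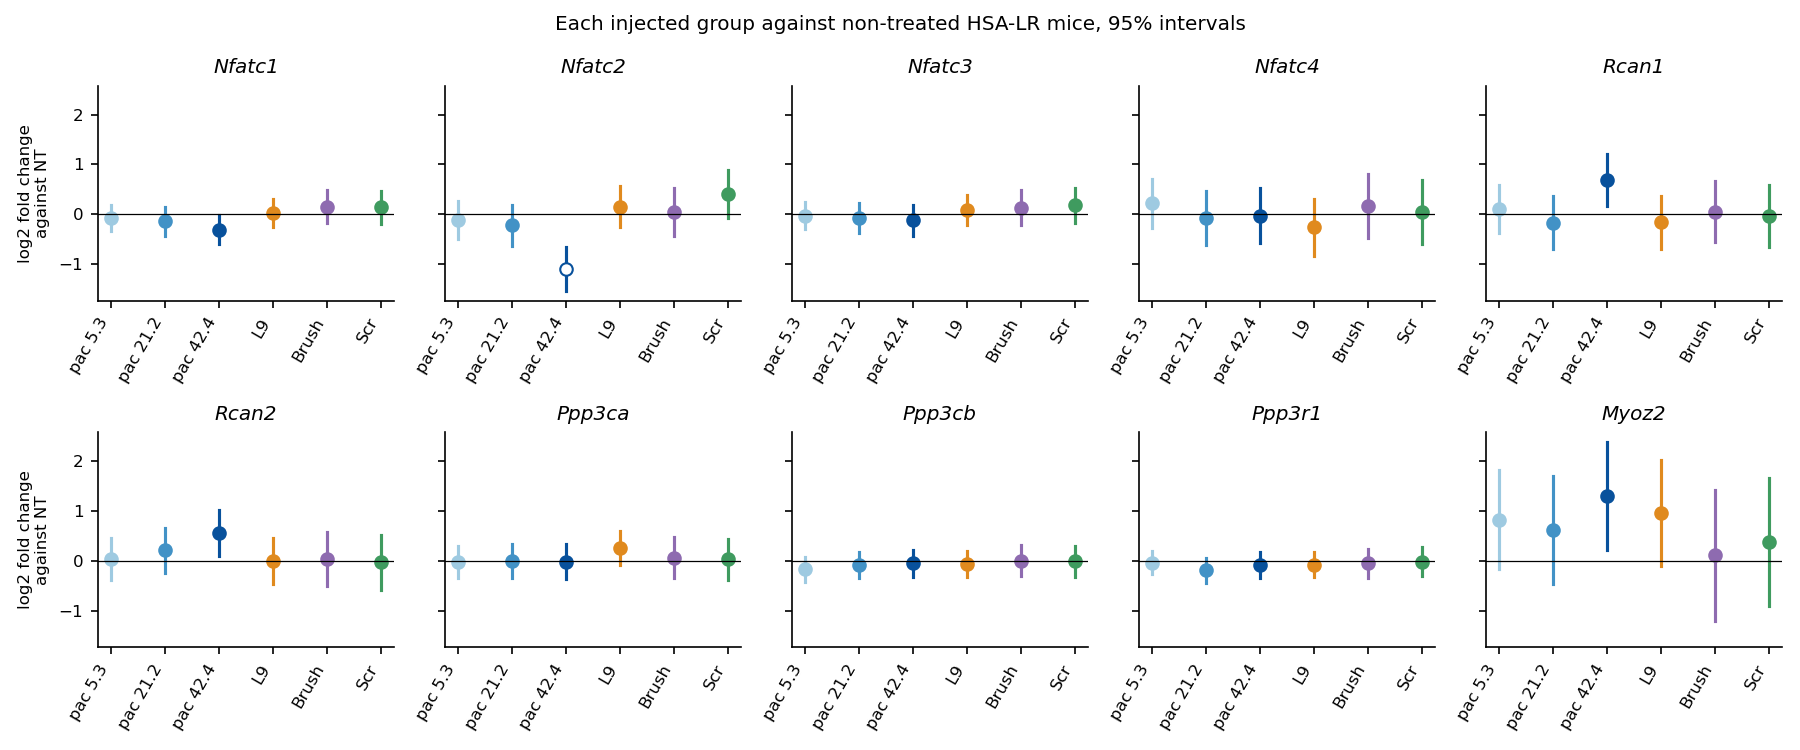
Fitted log2 fold change against NT (y axis, the same in every panel) with 95% intervals, for each of the 10 genes in the 6 injected groups (pac, pacDNA-L9 with its dose in mg/kg; L9, free L9; Scr, pacDNA-Scr), which share the same 8 NT mice. Only *Nfatc2* at 42.4 mg/kg, drawn open because it chose the gene, lies far below 0, and the *Myoz2* intervals are the widest.

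The level of *Myoz2*, and less regularly that of *Rcan2*, differed with the naming of the libraries. *Myoz2* was at 56.0 CPM in the WT library named by group and number against 9.66 to 33.4 CPM in the other 4, and at 70.8 CPM in NT 6 against 15.9 to 41.1 CPM in the other 5 NT mice of the first set. In Brush and pacDNA-Scr the ratio of the library so named to its partner was 7.73 and 5.04. For *Rcan2* the ratios were 2.07 in WT, 1.47 in NT, 2.02 in Brush and 1.04 in pacDNA-Scr, and for *Nfatc2* they were 0.776, 1.05, 1.23 and 0.864, so *Nfatc2* did not follow the naming in a single direction. Free L9 A and B are also so named, with no first-set partner of the other kind. Their *Myoz2* was at 77.3 and 100.3 CPM. Their *Rcan2*, at 41.1 and 49.0 CPM, lay within the 35.7 to 55.4 CPM of the other 5 NT mice of the first set. With naming as a further term the log2 difference of *Myoz2* for 42.4 mg/kg against NT was -0.07 in place of 1.30, against WT it was 0.41 in place of 1.70, and that of *Rcan2* against NT was 0.14 in place of 0.56. All 42.4 mg/kg mice are in this naming group, so their fitted difference then rests on a naming effect estimated from the other groups.

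Slow-fibre genes varied along with these members. The summed CPM of 11 slow-fibre genes (*Myh7*, *Tnni1*, *Mb* and others) was 859 to 2448 in WT, 2093 to 7341 in NT and 2992 to 5755 at 42.4 mg/kg. In each first-set group with both kinds of name, the library named by group and number had the highest sum. It was 2448 in WT (others at most 1512) and 5038 in NT 6 (others of the set at most 3408). Brush B was at 4877 against 1480 in Brush A, and pacDNA-Scr B at 4251 against 2866 in pacDNA-Scr A. Free L9 A and B, both so named, were at 4655 and 2200, so such a name did not always go with a high sum. All 42.4 mg/kg mice carry such names, so dose and naming cannot be told apart in their slow-fibre values. Myoglobin (*Mb*) made up 51.3% to 94.5% of the sum. Without it the sum was 233 to 486 CPM in WT, 115 to 1857 in NT and 248, 2030 and 2801 CPM at 42.4 mg/kg. *Myh7*, the slow myosin heavy chain, was at 0.163 CPM in NT 1 and 522 CPM in NT 7, and at 13.1, 395 and 484 CPM at 42.4 mg/kg, so libraries of a single group differed by far more than the groups did. Over the 24 libraries of the first set, which share the set and the table but span all 8 groups, Pearson's r with the log2 sum was 0.76 for *Myoz2* and 0.85 for *Rcan2*. Without *Mb* it was 0.73 and 0.64, and with *Myh7* alone 0.59 and 0.51. Of the 11 genes, 0 passed the edgeR quasi-likelihood test for 42.4 mg/kg against NT, where 3.14% of all genes did, and DESeq2 called 0. At an unadjusted p under 0.05 there were 5, against 13.1% of all genes. Their median log2 difference was nevertheless 2.20, beside -0.02 over all genes. The median was above 0 in every other injected group too, at 1.08, 0.96 and 1.20 for 5.3 mg/kg, 21.2 mg/kg and free L9, and at 1.40 and 1.52 for Brush and pacDNA-Scr, which carry no L9, with 0 of 11 called in each by edgeR or DESeq2 and at most 1 at an unadjusted p under 0.05. Their part in the differences of *Myoz2* and *Rcan2* was not tested.

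**Figure D4:**
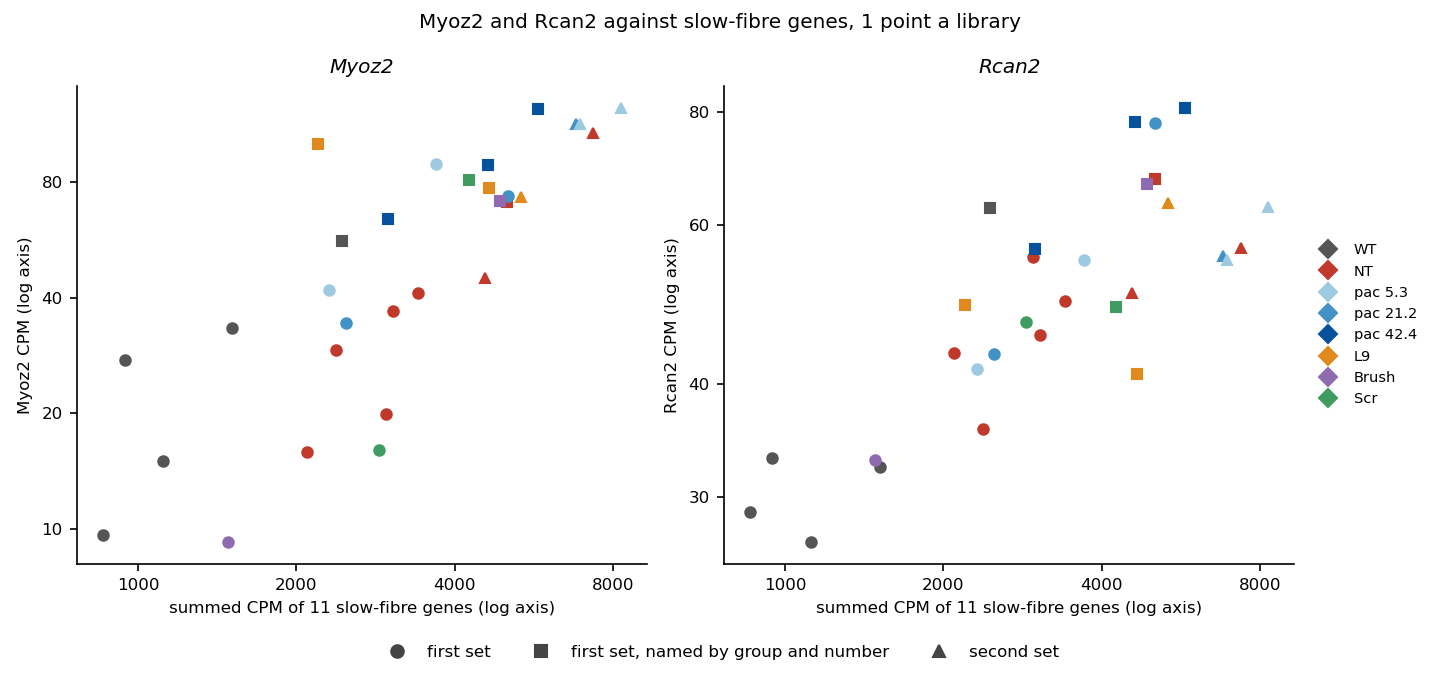
*Myoz2* (left) and *Rcan2* (right) in CPM against the summed CPM of 11 slow-fibre genes, both axes on a log scale, with 1 point a library coloured by group (pac, pacDNA-L9; Scr, pacDNA-Scr) and shaped by set and naming. The *Myoz2* points rise from 9.66 CPM at a sum of 859 to 125 CPM at a sum of 8293, and the 3 dark blue squares at 42.4 mg/kg lie at sums of 2992, 4619 and 5755.

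Among the members themselves, the closest pair over the 24 libraries of the first set was *Rcan2* with *Myoz2* (r = 0.73), followed by *Nfatc1* with *Nfatc2* (0.65), *Nfatc3* with *Ppp3cb* (0.65) and *Nfatc1* with *Nfatc3* (0.62). The most opposed pair was *Rcan2* with *Ppp3r1* (-0.60). *Nfatc2* was hardly related to *Rcan1* (-0.13), *Rcan2* (0.10) or *Myoz2* (-0.06). These r values are descriptions over mice of 8 groups. Of 12606 genes with a mean of at least 1 CPM, the 5 whose log2 CPM was most like that of *Nfatc2* over the 24 libraries were *Gm50285* (r = 0.89), *2310015D24Rik* (0.87), *Cntnap2* (0.87), *Cpd* (0.86) and *Cipc* (0.86). For *Myoz2* they were *Myh2*, the fast oxidative IIa myosin heavy chain (0.84), *Gm50221* (0.84) and *Myl6b*, a slow-muscle light chain (0.82).

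The genes around the members were counted by list. Calmodulin is the calcium sensor that activates calcineurin, and *Calm2* and *Calm3* are 2 of the genes that encode it. *Calm3* was at 511 ± 107 CPM (SD, n = 5) in WT and 325 ± 51.7 (n = 8) in NT, with overlap. It fell in NT against WT by 0.63 ± 0.16 (log2, SE; edgeR quasi-likelihood adjusted p = 0.0155), a call lost without WT replicate 3, in the first set alone and without the 5 libraries that lack mitochondrial counts (adjusted p up to 0.0656). *Calm2* was at 162 ± 20.9 CPM in WT, 153 ± 18.6 in NT and 81.5 ± 15.6 (n = 3) at 42.4 mg/kg, where all 3 mice lay below every NT mouse, and it fell by 0.85 ± 0.18 against NT (edgeR adjusted p = 0.00598). The fall of *Calm2* passed with the column naming as a term (-1.13, adjusted p = 0.00256) and not without 42.4 mg/kg replicate B (adjusted p = 0.158). At 42.4 mg/kg against WT both were lower (-0.99 for *Calm2* and -0.72 for *Calm3*). The *Calm3* call there was lost with the naming term and without WT replicate 3 or 42.4 mg/kg replicate B or C.

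Of 15 calcineurin regulators and anchors, 1 passed the edgeR test for NT against WT, near the 5.31% of all genes that did. The gene was *Lmcd1*, higher in NT, which encodes a LIM protein reported to promote calcineurin signalling in the heart. It was at 83.9 ± 42.5 CPM (SD, n = 5) in WT, 188 ± 59.9 (n = 8) in NT and 294 ± 117 (n = 3) at 42.4 mg/kg, with overlap of WT and NT. Its log2 difference was 1.24 ± 0.30 (SE; edgeR quasi-likelihood adjusted p = 0.0115) for NT against WT and 1.81 ± 0.35 (adjusted p = 0.000896) for 42.4 mg/kg against WT. The call for NT against WT was lost on the 8 mice with shared numbers, with and without the replicate block (adjusted p up to 0.125). At 42.4 mg/kg against WT, where 9.98% of all genes passed, 2 of 15 were higher (*Lmcd1* and *Rcan2*) and 1 lower, the scaffold *Akap5*. *Akap5* was at 2.01 to 3.20 CPM in WT and 0 to 0.814 CPM at 42.4 mg/kg, a call lost with the naming term (edgeR adjusted p = 0.120) and without 42.4 mg/kg replicate A or B. Against NT, where 3.14% of all genes passed in edgeR, none (0 of 15) passed at 42.4 mg/kg in the edgeR test or DESeq2. The 3 with an unadjusted p under 0.05, against 13.1% of all genes, were the members *Rcan1*, *Rcan2* and *Myoz2*. The medians of the 15 were 0.06, 0.00 and 0.10 for NT against WT, 42.4 mg/kg against NT and 42.4 mg/kg against WT, beside -0.03, -0.02 and -0.02 over all genes.

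Of 11 NFAT kinases, none (0 of 11) passed the edgeR test in NT against WT or 42.4 mg/kg against NT, where 5.31% and 3.14% of all genes did. In these comparisons 2 and 3 had an unadjusted p under 0.05, against 16.5% and 13.1% of all genes, and DESeq2 called 1 in each. At 42.4 mg/kg against WT, where 9.98% of all genes passed, 2 of 11 did, both lower. *Dyrk2* was at 97.9 ± 18.9 CPM (SD, n = 5) in WT, 70.1 ± 9.98 (n = 8) in NT and 41.5 ± 6.94 (n = 3) at 42.4 mg/kg, and fell by 1.24 ± 0.25 (log2, SE; edgeR quasi-likelihood adjusted p = 0.00121) against WT, also with the naming term (-1.12, adjusted p = 0.0141). *Mapk9* fell by 0.51 ± 0.14 (adjusted p = 0.0202), a call lost with the naming term (adjusted p = 0.271), without WT replicate 2 and without any 1 of the 42.4 mg/kg mice. Of 11 MEF2 and AP-1 genes, whose products bind DNA beside NFAT or share its targets, only *Jun* passed the edgeR test. For NT against WT and 42.4 mg/kg against WT this 1 of 11 stands beside 5.31% and 9.98% of all genes. *Jun* was higher in NT than in WT by 1.14 ± 0.25 (adjusted p = 0.00439) and at 42.4 mg/kg than in WT by 1.76 ± 0.30 (adjusted p = 0.000192). It was at 75.2 ± 11.5, 163 ± 54.2 and 255 ± 14.8 CPM in WT, NT and 42.4 mg/kg. For NT against WT, DESeq2 called 2 of these 11, and 4 (*Fos*, *Fosb*, *Jun* and *Junb*) had an unadjusted p under 0.05, against 16.5% of all genes. Of 13 genes of calcium entry and release, such as *Orai1*, *Stim1* and *Ryr1*, none (0 of 13) passed the edgeR test in any of the 8 comparisons. DESeq2 called 1 of them for 42.4 mg/kg against NT, and at most 2 in a comparison had an unadjusted p under 0.05. Of 5 NFAT factors, counting *Nfat5*, and of 5 calcineurin subunits, of which 4 were tested, none passed in any comparison in edgeR or DESeq2, leaving out *Nfatc2* in the comparisons that chose it, and only *Nfatc1* (42.4 mg/kg against NT) had an unadjusted p under 0.05. Of the 11 slow-fibre genes, *Mb* was higher in NT than in WT (1.36 ± 0.25, adjusted p = 0.000944) and *Mb* and *Atp2a2* at 42.4 mg/kg than in WT. Of all genes, 5.31% and 9.98% passed in these comparisons. The *Atp2a2* call was lost with the naming term and in 10 other settings, among them the omission of WT replicate 1, 2, 3 or 4 or of 42.4 mg/kg replicate B or C.

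**Figure D5:**
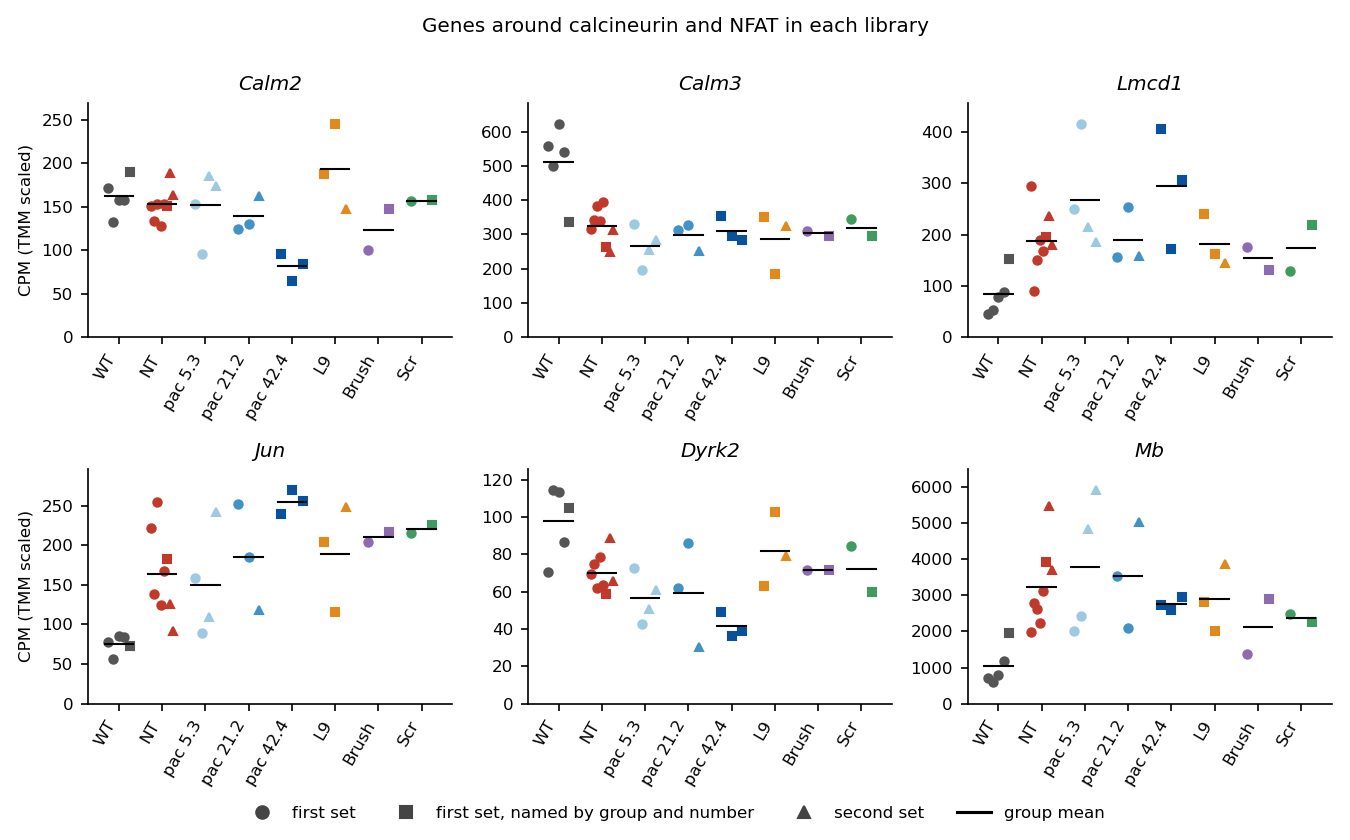
Level in CPM (linear axis from 0) of *Calm2*, *Calm3*, *Lmcd1*, *Jun*, *Dyrk2* and *Mb* in each of 30 libraries by group (pac, pacDNA-L9 with its dose in mg/kg; Scr, pacDNA-Scr), with bars at the group means and marker shapes for set and naming. *Calm2* at 42.4 mg/kg lies at 64.8 to 95.8 CPM, below the NT range of 128 to 189 CPM, and *Mb* in every NT library (1978 to 5483 CPM) lies above every WT library (597 to 1961 CPM).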

How the data were processed

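Paired-end libraries of poly(A) RNA were made from quadriceps of 30 mice. After trimming, the authors mapped reads to GRCm39; the deposited values are raw, unnormalized counts per gene. The submitters' processing notes name HISAT2 2.0.5 and DESeq2; the counter, its strand setting and the annotation release are not given in the sources used here. Ensembl IDs were paired with symbols through GENCODE (56017 of 56748 matched).

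Counts were fitted in edgeR 4.0.16 (R 4.3.3; TMM, filterByExpr, robust quasi-likelihood) over all 30 libraries, with a coefficient for each of 8 groups and a term for the deposited set. P-values were adjusted by Benjamini-Hochberg over 17518 genes at 0.05. The standard error is the log2 difference over the square root of F, and 95% intervals are its normal approximation. Correlations used log2(CPM + 0.5). DESeq2 1.42.0 and other settings were alternatives, and the fit was tested on simulated data.

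The members and gene lists were chosen with earlier results of these data known. Every member is named, with up to 4 genes a list (1 such gene is not reported here), those of lowest adjusted p under 0.05, and the 5 and 3 genes most like *Nfatc2* and *Myoz2*. The column WT_1 matched no label exactly and counts as a WT mouse without a number. Totals of 13605309 to 26956558 counts set the precision. P-values set each group difference against a spread between mice that was estimated over all 30 libraries and shared in part across genes.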

Additional observations from a re-analysis of the deposited data

Results flagged for a closer look

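The WT library without a number was the highest of the 5 WT libraries for *Rcan2*, at 62.7 CPM against 26.8 to 33.1 CPM in the other 4, a gap of 0.823 of the group's range. It stood out in 1 of 30 checks of a member in a group of 4 to 8 libraries, and chance flags about 1 in 20. The same library was also the highest of the WT libraries for *Rcan1* (120 CPM) and *Myoz2* (56.0 CPM) and the lowest for *Nfatc2* (14.7 CPM), without passing the same limit.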

How the results depend on the processing

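The other settings (13 for NT against WT and 11 for the other comparisons) and the omission of each of the 30 libraries in turn changed few calls of the members. For 42.4 mg/kg against WT, 1 of 9 members passed (*Rcan2*). The count was 2 with at least 10 counts in every library and with DESeq2 (*Rcan1* added), and 0 with library naming as a covariate. Leaving out 1 library gave 0 to 3 there, and 0 to 1 for NT against WT: 0 without 42.4 mg/kg replicate B or C, 3 without the unnumbered WT library, and 2 without NT 1, Brush A, Brush B, free L9 B or pacDNA-L9 5.3 mg/kg D. In the other 6 comparisons it was 0 throughout. Of 3300 values of a member under another setting, 3287 stayed the same and no called one changed direction. The same meant the same side of the threshold. An uncalled value could therefore change its sign and still count as the same. *Myoz2* did so for 42.4 mg/kg against NT, from 1.30 to -0.07 with the naming term. For *Nfatc2* in the comparisons that chose it, it meant a log2 difference within the SE of the main fit. Calls over all genes moved more: 126 to 945 for 42.4 mg/kg against NT (550 in the fit; 240 with naming), 912 to 2762 against WT (1749; 1049 with naming), 631 to 1585 for NT against WT (930), 22 to 1360 for free L9 (165) and 2 to 20 at 21.2 mg/kg (12). The deviations of WT and NT mice of equal number, 1 to 4, had r of 0.23, 0.05, 0.06 and 0.26. Their mean was 0.15, against -0.03 for unequal numbers. With the replicate block on these 8 mice 0 members and 631 genes passed, against 680 without it. The letters G and H in the column names would pair WT 3 with NT 4 and WT 4 with NT 5, and that pairing was not tested. No naming or sex term can separate the 42.4 mg/kg dose from traits all 3 of its mice share, and 2 to 4 mice a group limit what could be detected.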
